A study of Mus musculus with 2 samples.

Results

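The STAT genes encode signal transducers and activators of transcription, and 6 of them are described here: Stat2, Stat3, Stat4, Stat5a, Stat5b and Stat6. They were chosen by gene symbol, a rule that uses no measured value, though with earlier results of these data known, and all 6 were found among the 23988 genes of the expression table. The cells were untransformed myeloid progenitors of C57BL/6 mice, grown for 7 days from lineage-depleted marrow with IL3, SCF and IL6, with no further treatment. The series title concerns HOXA9/MEIS1 leukaemia cells, which were not analysed here, so there was 1 group of 2 RNA-seq libraries, replicate 1 and replicate 2. Nothing in the labels says whether these came from separate cultures or animals, and the spread between them may be technical. The smallest p that an exact two-sided sign-flip permutation test allows over 2 libraries is 0.5, so no test was run and every comparison is a description.

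A STAT protein waits in the cytoplasm until a cytokine receptor binds its ligand. Janus kinases on the receptor then phosphorylate the STAT on a tyrosine, and pairs of STATs move to the nucleus and bind DNA. In myeloid cells IL3 and GM-CSF act chiefly through STAT5A and STAT5B, and IL6 and G-CSF through STAT3. IL4 and IL13 act through STAT6, IL12 through STAT4, and the type I interferons through a complex of STAT2 with IRF9 and a further STAT. These are measurements of RNA, and activation by phosphorylation was not measured.

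The Stat5a and Stat5b genes lie side by side on chromosome 11 with Stat3 next to Stat5a, and the likeness of the first 2 bears on how their reads could be told apart. In GENCODE vM21 (GRCm38), their coding sequences were 90.9% identical over aligned bases. The longest stretch without a difference was 324 bases, from coding base 571 to coding base 894 in each gene, and its first 300 bases are shown because no read inside it can be assigned to either gene by its letters.
Stat5a and Stat5b shared coding stretch: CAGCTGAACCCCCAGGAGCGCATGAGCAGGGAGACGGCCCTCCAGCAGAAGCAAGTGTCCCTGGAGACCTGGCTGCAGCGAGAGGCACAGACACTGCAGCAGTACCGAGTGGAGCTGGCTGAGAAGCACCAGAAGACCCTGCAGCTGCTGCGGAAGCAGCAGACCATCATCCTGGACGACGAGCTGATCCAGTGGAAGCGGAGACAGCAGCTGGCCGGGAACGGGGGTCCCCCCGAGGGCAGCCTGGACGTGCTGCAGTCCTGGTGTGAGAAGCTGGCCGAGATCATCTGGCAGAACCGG
Of all stretches of 50 bases in the main transcript, 15.8% in Stat5a and 11.8% in Stat5b occurred in the other gene's transcript, and at 100 bases 6.99% and 5.18% did. The read length, and the treatment of reads that match more than 1 place, are not known here, so the levels of both genes carry this uncertainty. The annotated ends of Stat5a and Stat3, which lie on opposite strands, also overlap by 72 bases, and the strand setting of the counting is not given.

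The promoters are shown for the letters that STAT proteins are known to bind. RefSeq tables (GRCm38.p6) gave 9 promoters for the 6 genes, each from 250 bases before the transcript start to 50 after it. Capitals in the first pair mark motif letters found on either strand. The Stat2 promoter, chr10:128270248-128270547 on the plus strand, holds the core of an interferon-stimulated response element, and 1 of the Stat4 promoters, chr1:52007990-52008289 on the plus strand, holds it too.
Stat2 promoter: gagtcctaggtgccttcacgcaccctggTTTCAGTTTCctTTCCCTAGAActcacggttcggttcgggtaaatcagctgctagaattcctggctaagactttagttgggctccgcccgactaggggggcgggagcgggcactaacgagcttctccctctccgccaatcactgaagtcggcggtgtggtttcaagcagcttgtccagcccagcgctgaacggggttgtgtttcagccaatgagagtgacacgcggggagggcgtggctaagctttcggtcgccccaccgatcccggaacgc
Stat4 promoter: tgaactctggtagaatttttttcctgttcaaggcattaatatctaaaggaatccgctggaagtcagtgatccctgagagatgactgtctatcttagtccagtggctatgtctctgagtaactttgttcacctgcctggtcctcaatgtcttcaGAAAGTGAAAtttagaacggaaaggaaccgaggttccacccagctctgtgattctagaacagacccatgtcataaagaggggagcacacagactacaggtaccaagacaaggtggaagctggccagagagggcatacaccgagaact
The core searched was GAAANNGAAA, which 3.44% of all 32851 promoters of the same length held. It began 222 bases before the start in Stat2 and 97 bases before it in Stat4. The letters TTCNNNNGAA, a form that STAT6 can bind, occurred 210 bases before the Stat2 start, without overlap with the core, and in 6.95% of all promoters. The letters TTCNNNGAA, the common form of a STAT site, were in none of the 9 promoters and in 8.30% of all promoters. A match is a description of letters, not a bound site.

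The promoter of Stat6, the highest member, and the most alike promoters of Stat5a and Stat5b are shown for comparison. The Stat6 promoter is chr10:127642736-127643035 on the plus strand. The Stat5a promoter is chr11:100860234-100860533 on the plus strand and the Stat5b promoter chr11:100822521-100822820 on the minus strand, and capitals in this pair mark their longest shared run of 16 bases.
Stat6 promoter: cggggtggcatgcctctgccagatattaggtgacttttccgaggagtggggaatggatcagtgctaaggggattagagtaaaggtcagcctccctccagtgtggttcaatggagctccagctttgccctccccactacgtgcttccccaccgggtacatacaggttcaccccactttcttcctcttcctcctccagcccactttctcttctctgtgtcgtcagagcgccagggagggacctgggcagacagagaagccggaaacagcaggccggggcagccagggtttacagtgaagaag
Stat5a promoter: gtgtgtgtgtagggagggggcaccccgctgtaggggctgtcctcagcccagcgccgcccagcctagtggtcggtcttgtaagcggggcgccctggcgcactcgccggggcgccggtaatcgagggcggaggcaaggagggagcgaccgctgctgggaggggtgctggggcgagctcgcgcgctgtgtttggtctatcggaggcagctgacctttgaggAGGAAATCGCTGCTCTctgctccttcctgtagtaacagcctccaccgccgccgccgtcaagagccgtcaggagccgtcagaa
Stat5b promoter: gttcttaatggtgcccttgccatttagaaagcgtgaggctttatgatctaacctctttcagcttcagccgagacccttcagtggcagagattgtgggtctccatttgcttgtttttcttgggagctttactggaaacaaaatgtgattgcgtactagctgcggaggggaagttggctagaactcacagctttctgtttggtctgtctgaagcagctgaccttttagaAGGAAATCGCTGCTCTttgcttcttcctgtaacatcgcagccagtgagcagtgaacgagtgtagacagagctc
The best local alignment of this pair had 83 identical bases in 100 columns without a gap, and 4 gaps besides, around the starts of both transcripts. The Stat5a window held 27 CpG dinucleotides and the Stat5b window 7. The other Stat5b promoter, chr11:100850532-100850831 on the minus strand, held 50, more than 99.1% of all promoters, whose median was 7.

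All 6 STAT genes were expressed in both libraries, at levels that spanned about an order of magnitude. Each reached 1 RPKM (reads divided by gene length and library size) in both libraries, which is called detected, as 43.5% of all genes did. Stat6 was highest and Stat4 lowest, with a ratio of 10.8 in replicate 1 and 11.8 in replicate 2. The median of the 6 was 20.8 RPKM in each library, against 14.5 and 14.3 RPKM over all detected genes in replicates 1 and 2. The 6 genes summed to 127 RPKM in replicate 1 and 154 RPKM in replicate 2.

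Stat6, which carries the signals of IL4 and IL13, stood at 42.6 RPKM in replicate 1 and 64.5 RPKM in replicate 2, or 53.5 ± 15.4 RPKM (SD, n = 2). It was above 77.5% of detected genes in replicate 1 and above 85.2% in replicate 2. It made up 33.7% of the summed RPKM of the 6 genes in replicate 1 and 41.8% in replicate 2, the largest share in both.

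Stat5b and Stat3, the STATs of the culture cytokines, came next and could not be ordered. Stat5b stood at 25.5 RPKM in replicate 1 and 31.6 RPKM in replicate 2, or 28.6 ± 4.25 RPKM (SD, n = 2). Stat3 stood at 26.7 RPKM and 28.6 RPKM, or 27.7 ± 1.34 RPKM (SD, n = 2). Stat3 was the higher of the pair in replicate 1 and Stat5b in replicate 2, so their difference was smaller than the spread between libraries.

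Stat5a, the close relative of Stat5b that also serves the IL3 receptor, was lower than Stat5b in both libraries. It stood at 11.6 RPKM in replicate 1 and 11.1 RPKM in replicate 2, or 11.4 ± 0.361 RPKM (SD, n = 2), the smallest spread of the 6. The ratio of Stat5b over Stat5a was 2.19 in replicate 1 and 2.83 in replicate 2. On the log2(RPKM + 1) scale the difference was 1.25 ± 0.25 (SD, n = 2). The stretches shared by both transcripts, given above, limit this comparison, and their part in it was not tested.

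Stat2, the interferon STAT, stood at 16.0 RPKM in replicate 1 and 13.1 RPKM in replicate 2, or 14.6 ± 2.11 RPKM (SD, n = 2). Its level was near the median of detected genes, above 52.9% of them in replicate 1 and 47.5% in replicate 2. Stat4, the IL12 STAT best known from T and NK cells, was lowest in both libraries at 3.94 RPKM and 5.45 RPKM, or 4.70 ± 1.07 RPKM (SD, n = 2). Among 13 T and NK cell markers found in the table, 2 were detected, namely Nkg7 and Gzmb, against 43.5% of all genes. The markers summed to 32.3 RPKM in replicate 1 and 111 RPKM in replicate 2. Most of this was Gzmb, at 21.4 and 93.7 RPKM, and Nkg7, at 8.76 and 14.9 RPKM. The other 11 were not detected, and Cd3e, Cd4 and Ncr1 were listed at 0 in both libraries. Of 9 dendritic cell markers 2 were detected, with sums of 6.12 and 16.4 RPKM. The part of such cells in the Stat4 level was not tested. In bulk RNA, fewer cells of a type and less RNA per cell cannot be told apart.

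**Figure D1:**
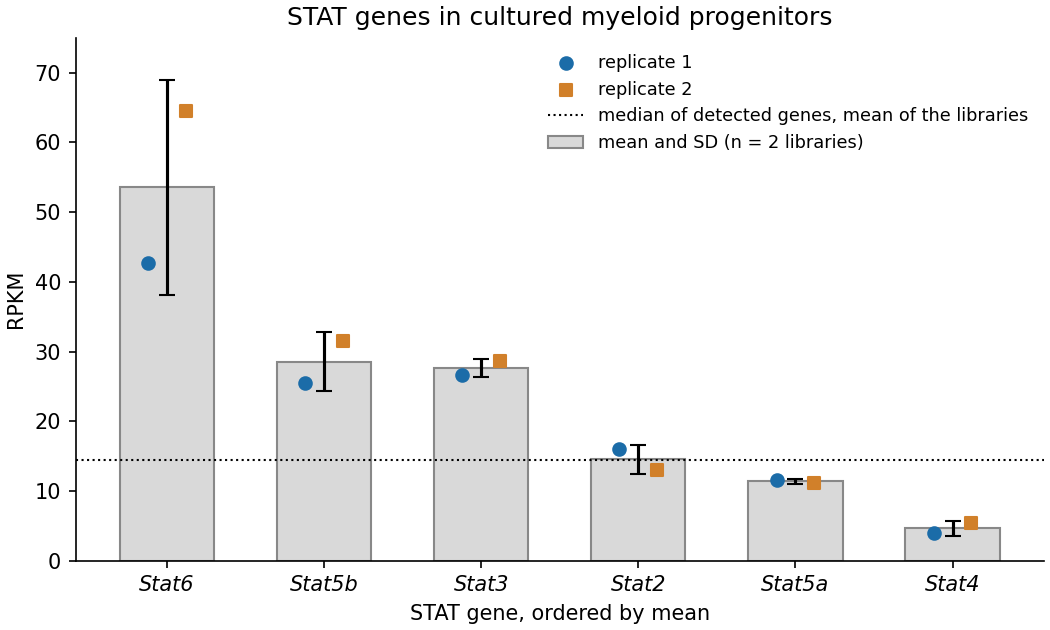
RPKM of the 6 STAT genes, ordered by mean. Circles and squares are replicates 1 and 2, bars and whiskers the mean and SD of 2 libraries, and the dotted line is the median of detected genes. Stat6 stands highest at 42.6 and 64.5 RPKM, Stat5b and Stat3 overlap, and Stat4 is lowest at 3.94 and 5.45 RPKM.

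The order of the 6 genes was Stat6, Stat5b, Stat3, Stat2, Stat5a and Stat4. Of the 15 pairs, 14 differed beyond the spread, meaning that both libraries gave the same sign and the mean difference on the log2(RPKM + 1) scale was over 2 SD. The exception was Stat5b and Stat3, at 0.04 ± 0.14 (SD, n = 2). The share of pairs of all genes that would pass this rule was not computed. The count of 14 is therefore no result about the STAT genes. Among neighbours in the order, Stat6 exceeded Stat5b by 0.86 ± 0.21, Stat3 exceeded Stat2 by 0.89 ± 0.26 and Stat5a exceeded Stat4 by 1.13 ± 0.32. Stat2 exceeded Stat5a by 0.32 ± 0.15 (SD, n = 2 in each case), just over 2 SD. The stretches that Stat5a shares with Stat5b limit this order too, and their part in it was not tested. Levels of different genes are comparable only as far as the gene lengths used for the RPKM, which are not given, are right.

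**Figure D2:**
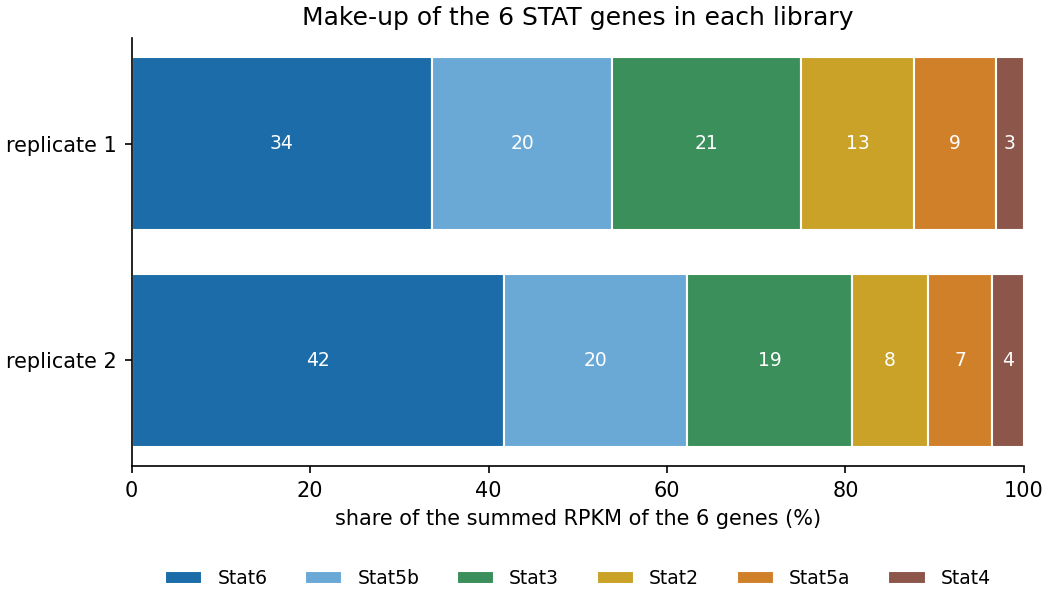
Share of the summed RPKM of the 6 STAT genes that each gene took in replicate 1 (top) and replicate 2 (bottom), in percent. The Stat6 share is 33.7% and 41.8%, and those of Stat2 are 12.7% and 8.46%.

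Between the 2 libraries each STAT gene differed by at most 1.51-fold in RPKM. The log2 ratio of replicate 2 over replicate 1, with 1 RPKM added to each value, ranged from -0.28 for Stat2 to 0.59 for Stat6. Its median over the 6 genes was 0.20, against -0.05 over the 10896 genes with a mean of 1 RPKM or more, a filter that all 6 passed. The median absolute log2 ratio was 0.29 over the 6 genes and 0.25 over those 10896 genes. Only Stat6 reached 1.5-fold, upwards in replicate 2, as did 11.3% of all genes so filtered. No member was 1.5-fold lower in replicate 2, which 4.26% of genes were, and none reached 2-fold, as 5.3% of genes did upwards and 0.734% downwards. The count of 1 in 6 is near the background and is no result about these genes. Stat6 lay at the threshold itself, and with both libraries scaled to the same sum its log2 ratio was 0.58 and no member reached 1.5-fold.

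Whole read numbers recovered from the steps of the table set the counting error of these ratios. The smallest read numbers that give the deposited values were 4963 and 7216 for Stat6 in replicates 1 and 2, 760 and 903 for Stat5b, and 1428 and 1471 for Stat3. For Stat2 they were 1192 and 933, for Stat5a 1565 and 1439, and for Stat4 259 and 345. The true numbers may be whole multiples of these, by a factor that may differ between genes, which would narrow the intervals. The RPKM of Stat6 was 1.51-fold higher in replicate 2 (95% exact interval 1.46 to 1.57), that of Stat4 1.39-fold (1.18 to 1.63) and that of Stat5b 1.24-fold (1.12 to 1.36). The ratio was 0.814 for Stat2 (0.746 to 0.887), 1.07 for Stat3 (0.995 to 1.15) and 0.956 for Stat5a (0.889 to 1.03). The intervals of Stat6, Stat4, Stat5b and Stat2 left out 1 already at the smallest read numbers. Those of Stat3 and Stat5a included 1 there, but would leave it out at 2 times the reads for Stat3 (1.02 to 1.13) and at 3 times for Stat5a (0.917 to 0.997), so whether these genes differed beyond counting error is not known. The reads carry no molecular identifiers, and these intervals cover counting error only, under the deposited scaling of the libraries.

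**Figure D3:**
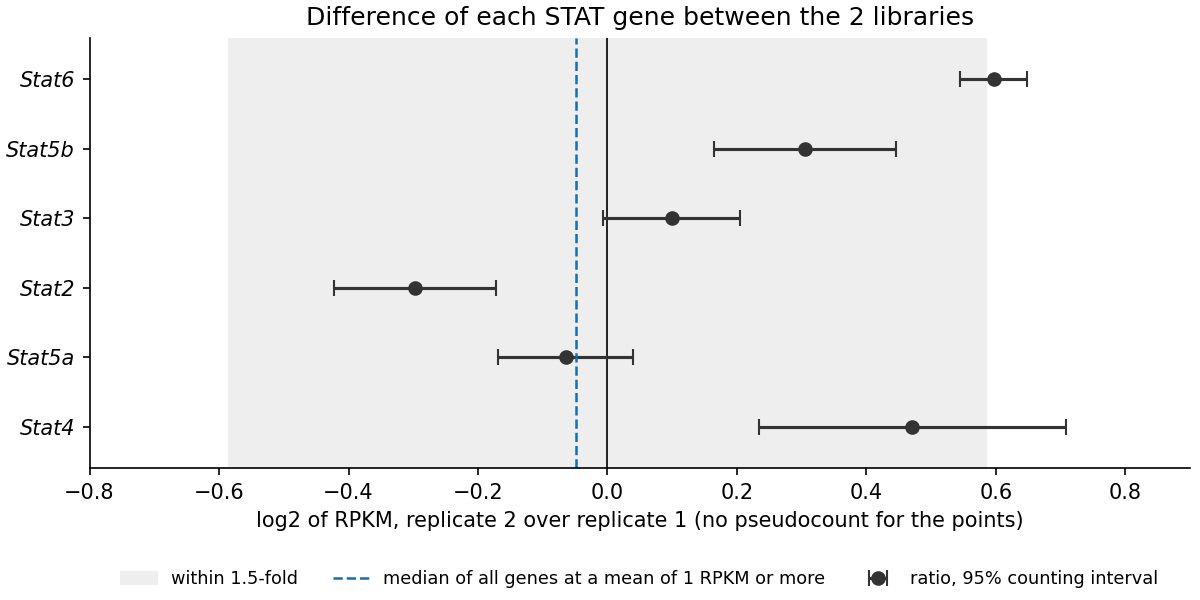
Log2 ratio of the RPKM in replicate 2 over replicate 1 for each STAT gene, with 95% exact counting intervals at the smallest read numbers; the grey band is within 1.5-fold and the dashed line the median of all genes at a mean of 1 RPKM or more. Stat6, Stat5b and Stat4 lie above 0, Stat2 lies below, and the intervals of Stat3 and Stat5a reach across 0.

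Markers of macrophages and mast cells were higher in replicate 2. All 14 monocyte and macrophage markers found were higher in replicate 2, with 12 detected and none at 0. They summed to 1359 RPKM in replicate 1 and 3686 RPKM in replicate 2. Of the 13 with a mean of 1 RPKM or more, 11 were past 1.5-fold upwards in replicate 2 and none downwards. The shares of all genes so filtered were 11.3% and 4.26%, with a median log2 ratio of -0.05. All 9 mast cell markers were higher in replicate 2, with sums of 234 and 1326 RPKM, and 4 were detected. Their medians were 0.666 RPKM in replicate 1 and 67.0 RPKM in replicate 2. Among them 6 had a mean of 1 RPKM or more, with a median log2 ratio of 5.58. Of those, 6 were past 1.5-fold upwards and 5 past 2-fold, against 11.3% and 5.3% of all genes so filtered. Cpa3, with a smaller log2 ratio of 1.33, stood at 221 and 556 RPKM. Mrgprb2 was listed at 0 in replicate 1. The 10 neutrophil markers were all detected, with sums of 13911 and 16062 RPKM. Of these, 6 were higher in replicate 2, with 4 past 1.5-fold upwards and none downwards. Past 2-fold upwards were Retnlg, at 16.6 and 169 RPKM, Mmp8, at 37.7 and 178 RPKM, and Camp, at 1016 and 2115 RPKM. The 4 lower in replicate 2 were Mpo, Elane, Prtn3 and Ctsg, all within 1.5-fold. Of 8 B cell markers 1, Cd79b, was detected and of 8 erythroid markers 1, Gata1, against 43.5% of all genes. All 10 neutrophil and 12 of 14 macrophage markers were detected, but 4 of 9 mast cell and 2 of 9 dendritic cell markers. The neutrophil and macrophage lists were thus above the share of all genes, and the mast cell and dendritic cell lists near or below it. The part of these shifts in the higher Stat6 of replicate 2 was not tested.

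The genes upstream of the STATs were expressed in both libraries. All 6 receptor chains of the culture cytokines were detected, against 43.5% of all genes. The medians of the 6 were 17.1 RPKM in replicate 1 and 25.4 RPKM in replicate 2. Csf2rb, the beta chain shared by the IL3, GM-CSF and IL5 receptors, stood at 343 and 497 RPKM, and its mouse-specific copy Csf2rb2, which pairs with the IL3 receptor alone, at 69.8 and 115 RPKM. These copies are alike in sequence, so their separate values are uncertain. Kit, the SCF receptor, which is itself a tyrosine kinase, stood at 21.2 and 26.2 RPKM. Of the 6 chains, 4 were past 1.5-fold upwards in replicate 2 and none downwards, against 11.3% and 4.26% of all genes with a mean of 1 RPKM or more. Their median log2 ratio was 0.72. Il6ra, the IL6-binding chain, was the one past 2-fold, at 11.5 RPKM in replicate 1 and 24.5 RPKM in replicate 2, as 5.3% of all genes so filtered were.

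All 4 Janus kinase genes were detected, against 43.5% of all genes. The 4 ranged from 8.31 to 132 RPKM in replicate 1 and from 16.3 to 154 RPKM in replicate 2. Jak1, which serves the IL6, IL4 and interferon receptors, was highest at 132 and 154 RPKM. Tyk2, a kinase of the interferon and IL12 receptors, stood at 42.0 and 55.3 RPKM. Of the 4 genes 1 was 1.5-fold higher in replicate 2, namely Jak3, the kinase bound to the common gamma chain, at 8.31 and 16.3 RPKM. The share of all genes past 1.5-fold upwards was 11.3%, and 1 gene of 4 is no result about the kinases.

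Of 27 other receptor chains that signal through STATs, 17 were detected, against 43.5% of all genes. The highest were Csf2ra, the GM-CSF receptor alpha chain, at 283 and 263 RPKM, Ifngr1, an interferon gamma receptor chain, at 161 and 172 RPKM, and Csf3r, the G-CSF receptor, at 120 and 148 RPKM. Among the 19 with a mean of 1 RPKM or more, 7 were past 1.5-fold upwards in replicate 2 and none downwards, against 11.3% and 4.26% of all genes so filtered. The largest ratios were those of Il13ra1, an IL13 receptor chain upstream of STAT6, at 5.76 and 24.7 RPKM, and of Il10ra, an IL10 receptor chain upstream of STAT3, at 20.2 and 68.9 RPKM. Lifr, at 0.596 and 2.91 RPKM, and Il7r, at 3.90 and 9.36 RPKM, also passed 2-fold. Osmr was listed at 0 in both libraries. Il12rb1 and Il12rb2, the chains of the IL12 receptor that feeds STAT4, were detected at 4.13 and 4.49 RPKM and at 2.17 and 2.68 RPKM, low levels as for Stat4 itself.

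Inhibitors of the pathway were expressed too. Against 43.5% of all genes, each of the 17 feedback and inhibitor genes was detected. Their medians were 10.7 and 11.2 RPKM, and their median log2 ratio was 0.06. Cish, a feedback inhibitor that STAT5 induces, was the highest at 104 and 115 RPKM. The phosphatase genes Ptpn11 and Ptpn6, which encode SHP2 and SHP1, stood at 103 and 79.3 RPKM and at 77.8 and 77.2 RPKM. Socs3, the STAT3-induced inhibitor of IL6 and G-CSF signalling, was the one past 2-fold, at 15.5 RPKM in replicate 1 and 57.5 RPKM in replicate 2. In all, 2 of the 17 were past 1.5-fold upwards in replicate 2 and none downwards, which is near the 11.3% and 4.26% of all genes and is no result about the list.

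The nuclear partners were also present. Against 43.5% of all genes, each of the 6 partners and coactivators was detected. Their medians were 7.32 and 9.13 RPKM, and none reached 1.5-fold. Ndufa13, a respiratory chain subunit also described as a STAT3-binding protein, led at 44.3 and 37.3 RPKM. The coactivator gene Ep300 stood at 16.2 and 14.8 RPKM. Stat2, at 16.0 and 13.1 RPKM, stood above Irf9, which encodes the DNA-binding partner of STAT2, at 7.22 and 9.42 RPKM.

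**Figure D4:**
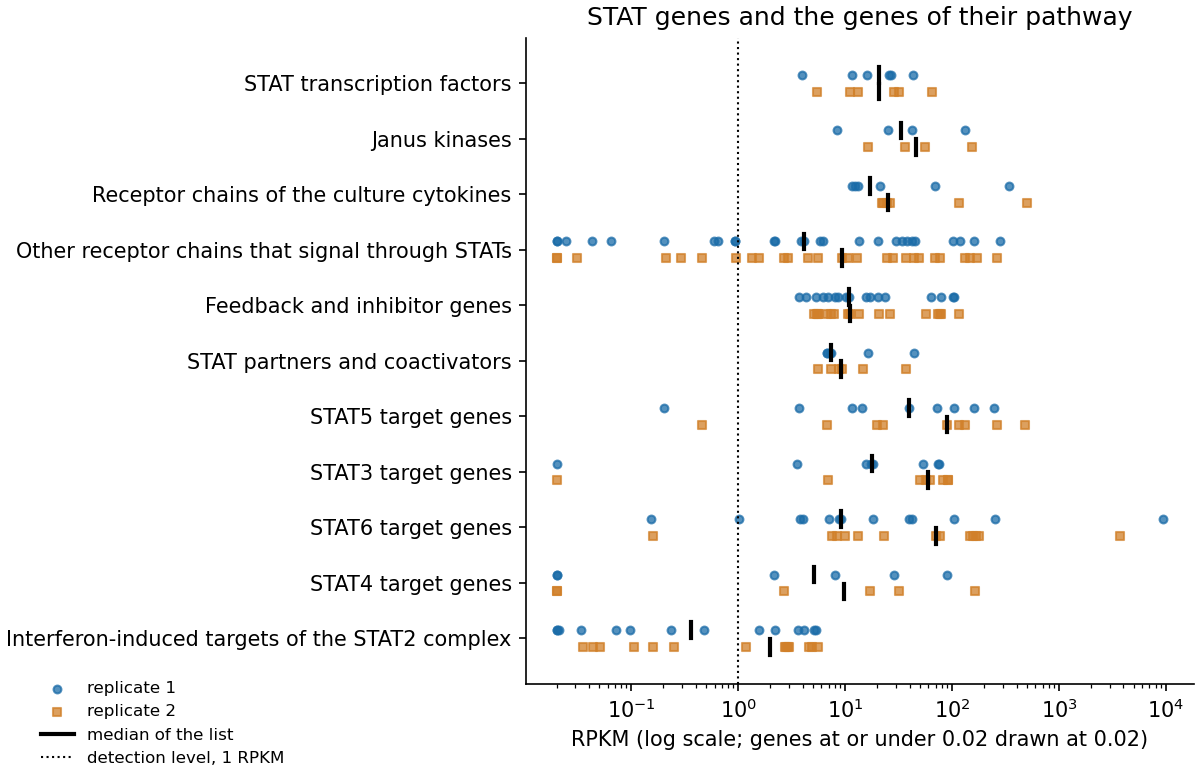
RPKM (log scale) of the 6 STAT genes and of each pathway list, 1 point per gene, with circles for replicate 1 and squares for replicate 2; black ticks are list medians and the dotted line is the detection level of 1 RPKM. The STAT medians coincide at 20.8 RPKM, and the interferon-induced genes have the lowest medians, 0.360 and 1.96 RPKM.

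Known target genes of the STATs differed widely in level from one STAT to another. STAT5 targets had the highest medians, 39.2 RPKM in replicate 1 and 89.5 RPKM in replicate 2. In this list 8 of 9 were detected, against 43.5% of all genes. Pim1, a survival kinase, stood at 246 and 483 RPKM and Mcl1, an anti-apoptotic protein gene, at 160 and 265 RPKM. Osm, a cytokine gene that STAT5 induces, was past 2-fold at 39.2 and 132 RPKM. Il2ra was not detected, at 0.201 and 0.457 RPKM. Of the 8 genes with a mean of 1 RPKM or more, 5 were past 1.5-fold upwards in replicate 2 and none downwards, against 11.3% and 4.26% of all genes so filtered, and their median log2 ratio was 0.72. The ratio of replicate 2 over replicate 1 was 1.24 for Stat5b and 0.956 for Stat5a.

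STAT3 targets had medians of 17.7 RPKM in replicate 1 and 59.6 RPKM in replicate 2. In this list 7 of 8 were detected, against 43.5% of all genes. The median log2 ratio of the 7 was 0.78, a smaller difference than that of the medians. The growth regulator genes Myc and Birc5, at 75.8 and 91.5 RPKM and at 73.6 and 61.7 RPKM, were below 1.5-fold. Fos, at 18.0 and 91.0 RPKM, Junb, at 17.3 and 82.7 RPKM, and Socs3 were past 2-fold upwards. Of the 7, 3 were thus past 2-fold and 4 past 1.5-fold upwards, with none past 1.5-fold downwards. The shares of all genes with a mean of 1 RPKM or more were 5.3%, 11.3% and 4.26%. Fos and Junb are immediate early genes that many other signals induce. Stat3 itself was at 26.7 and 28.6 RPKM.

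STAT6 targets, genes that IL4 induces in mouse macrophages, had medians of 9.18 RPKM in replicate 1 and 70.5 RPKM in replicate 2. In this list 12 of 13 were detected, against 43.5% of all genes. The medians fall on different genes, Arg1 in replicate 1 and Mgl2 in replicate 2, and the median log2 ratio of the 12 was 0.83. Of these 12, 8 were past 1.5-fold upwards in replicate 2 and 1 downwards, against 11.3% and 4.26% of all genes with a mean of 1 RPKM or more. Arg1 (arginase 1) was at 9.18 and 166 RPKM, the lectin gene Clec10a at 18.2 and 148 RPKM, the chemokine gene Ccl17 at 3.77 and 23.2 RPKM and Retnla (resistin-like alpha) at 1.02 and 8.32 RPKM. Chil3, a chitinase-like protein gene and by far the highest of the list, went the other way, at 9447 and 3725 RPKM. Ccl24 was at 250 and 177 RPKM, and the mannose receptor gene Mrc1 at 105 and 155 RPKM. Fcer2a was not detected, at 0.152 and 0.158 RPKM. Many of these genes are also markers of macrophages, whose marker sums are given above.

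Of 6 STAT4 targets, 4 were detected, against 43.5% of all genes. Ifng, the main product of STAT4 in T and NK cells, was listed at 0 in both libraries, and Tbx21 was listed at 0 in replicate 1 and at 0.0195 RPKM in replicate 2. Furin, a protease gene with many other inducers, stood at 89.5 and 162 RPKM, Il18rap at 28.5 and 31.7 RPKM and Il18r1 at 8.03 and 17.0 RPKM. Stat2, at 16.0 and 13.1 RPKM, was above the medians of the interferon-induced genes of its complex, 0.360 RPKM in replicate 1 and 1.96 RPKM in replicate 2. Of these 14 genes, 6 were detected, which is near the 43.5% of all genes and is no result about the list. The 7 with a mean of 1 RPKM or more had a median log2 ratio of 0.04. The highest by the mean of both libraries were Oas1a at 5.37 and 5.53 RPKM, Ddx58 at 5.07 and 4.92 RPKM and Irf7 at 4.08 and 2.73 RPKM. Mx1 was past 2-fold, at 0.483 and 2.78 RPKM.

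Among the 103 pathway genes found in the table, the one nearest to each STAT gene was sought by Euclidean distance over log2(RPKM + 1) in the 2 libraries. For Stat6 it was Mgl2, a macrophage lectin gene, at 39.1 and 70.5 RPKM, with a distance of 0.18. For Stat5b it was Il18rap (0.15), for Stat3 Il10rb (0.15), for Stat2 Ep300 (0.17), for Stat5a Pias1 (0.13) and for Stat4 Pias3 (0.13). A likeness over 2 libraries describes level alone.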

How the data were processed

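The deposited table holds RPKM values, 1 column for each library, from RNA of 2 libraries of 1 group, made with the Illumina TruSeq kit per the labels' protocols. The submitters' processing notes name Trimmomatic 0.32, TopHat2, HTSeq, edgeR and build mm9. Gene lengths, library sizes, the strand setting and the handling of shared reads were not stated there. Columns were matched to samples by name. From 24015 rows, 27 with date-like names (0.109% of the summed RPKM in each library) were left out.

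Python 3.11.15 with numpy 2.4.6, pandas 2.3.3 and scipy 1.17.1 computed RPKM per library, mean and SD, and log2 ratios with a pseudocount of 1 RPKM, for genes with a mean of 1 RPKM or more. Such ratios understate differences of low genes. Depth as such is unknown. Read numbers were the smallest whole pairs, up to 20000 reads, that gave the deposited ratio within its rounding, using the ratio of effective library sizes (0.962) shared by 474 genes of equal read number. Intervals are exact (Clopper-Pearson) at 95%. The recovery and the fold counts were tested on simulated data. The simulated read pairs were all smaller than that of Stat6, so recovery at its size was not tested. Alternatives changed the pseudocount, scaling, minimum, fold and libraries. Sequences came from GENCODE vM21 and RefSeq on another build than the table's, and were joined by symbol.

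The members and lists were chosen with earlier results of these data known. Genes named from each pathway list were its 3 highest, those not detected where 3 or fewer, and up to 4 of the largest ratios past 2-fold. Jak3, Il12rb1, Il12rb2 and Osmr among the receptors were named after their values were seen. So were all the cell type markers named, which are Nkg7, Gzmb, Cd3e, Cd4, Ncr1, Cpa3, Mrgprb2, Cd79b, Gata1 and the neutrophil markers. Some genes that the rule takes are not reported here.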

Additional observations from a re-analysis of the deposited data

How the results depend on the processing

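With a pseudocount of 0.1 RPKM, the same 14 of 15 pairs differed beyond the spread. With 1 library there is no spread, so pair calls could not be made without either replicate. With each library scaled to the same sum (TPM), the median level of the 6 genes was 33.9 TPM, against 20.8 RPKM, a change of unit. It was 20.8 RPKM without either replicate. The count of STAT genes past 1.5-fold was 1, and it was 0 under that scaling, where the log2 ratio of Stat6 was 0.58, and 0 at 2-fold. The Stat6 ratio ranged from 0.58 to 0.64 over the alternatives, and no STAT gene changed sign in 24 recomputed ratios. With the median log2 ratio between libraries set to 0, that of Stat5a moved to -0.008, against -0.06. Its counting interval was not recomputed under that scaling. None of 84 recomputed list median log2 ratios changed sign, but some moved far. With no minimum level, the median of the B cell markers was 0, against 0.89. That of the T and NK cell markers was 0.02, against 1.39, and that of the mast cell markers 1.33, against 5.58. The median of the interferon-induced genes was 0.39 with TPM, against 0.04. No paired analysis was possible because the libraries form 1 group. Stat4 had the fewest reads at the smallest read numbers, 259 and 345.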
